A study of Homo sapiens with 15 samples.

Results

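Serpins are a family of proteins that share a fold, and the 32 genes described here are those of 39133 in the table whose symbol has the form SERPIN, a clade letter from A to I and a number. The symbol alone chose them, so no measured value decided membership. A further 3 serpin symbols, SERPINA13P, SERPINB9P1 and SERPINH1P1, name pseudogenes or non-coding copies and were outside that rule. SERPINB3, SERPINB4 and SERPINB12 were not analysed here.

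Most serpins inhibit serine proteases by a suicide mechanism: the protease cleaves an exposed loop of the serpin, the loop swings into the body of the serpin, and the protease is trapped and distorted. The liver makes most of the serpins of blood plasma, among them the inhibitors of neutrophil elastase, thrombin and plasmin. Some members have lost inhibition and carry hormones or fold collagen instead, and clade B serpins stay inside cells, where they face granule proteases and cathepsins.

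RNA was measured in HepG2, a line from a human hepatocellular carcinoma, by poly(A) RNA-seq with paired reads. There were 5 groups of 3 libraries, called biological replicates in the series text and all wild type: untreated control, palmitate alone, and sodium butyrate given on palmitate at a low (0.5 mM), medium (1 mM) or high (1.5 mM) dose. Palmitate, a saturated fatty acid, served to induce insulin resistance, and its concentration is labelled 200 mM, a unit that could not be checked. Butyrate is a short-chain fatty acid that inhibits histone deacetylases. Cells were harvested at 48 h, per the labels. By the names of the libraries, palmitate cells had the fatty acid for 48 h, whereas butyrate cells had palmitate for 24 h and butyrate for 24 h, so a change from palmitate to butyrate and a change in palmitate time cannot be told apart. No group had butyrate without palmitate. All results come from this single tumour line.

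Libraries held between 35349827 and 61086976 counts. All 9 hepatocyte markers listed passed the filter on low counts, with a summed level between 21740 and 31850 CPM (counts scaled to library size, with TMM factors) in every library. Of the other lists, stromal markers summed to 1.66 to 2.56 CPM in control and palmitate libraries and to 23.3 to 25.2 in high butyrate, where COL1A1 made up most of it and DCN and LUM stayed at or near 0. Neuronal markers summed to 2.13 to 3.60 and 8.51 to 9.31 CPM in the same libraries, with STMN2 at or near 0. Cholangiocyte markers summed to 526 to 624 CPM in control and palmitate and to 951 to 993 in high butyrate, mostly KRT19, with CFTR at or near 0. Endothelial markers summed to 4.25 to 7.17 CPM in control and palmitate and to at most 14.2 in high butyrate, all high libraries above all palmitate ones, with KDR at or near 0. Immune markers summed to 2058 to 2644 CPM in control and palmitate and to 947 to 1020 in high butyrate, nearly all of it LYZ, lysozyme, with PTPRC and CD3E at or near 0. Squamous markers summed to 202 to 225 and 125 to 143 CPM in the same libraries, nearly all of it SFN, with KRT5 and KRT14 at or near 0. Genes of the mitochondrial genome took 8.55% to 8.83% of counts in control and 11.5% to 13.96% in high butyrate. Their part in the serpin results was not tested.

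Libraries of the palmitate group stood apart from each other. KRT7, a keratin of simple ducts, was at 5.24 CPM in palmitate library 1 but at 0 and 0.0343 in libraries 2 and 3. CDH5, an endothelial cadherin, was at 1.41, 0 and 0 CPM in these 3 libraries. In KRT7 all control, low and medium libraries lay at 3.81 CPM or more and all high libraries at 0.0399 or less, so palmitate libraries 2 and 3 lay with the high dose. The part of this split in the serpin results was not tested, but the counts of called serpins against palmitate or control were also made without palmitate library 1 and with palmitate library 1 alone. The latter setting was chosen after seeing the data. With 1 library in that arm the spread comes from the other groups, so the lone library is assumed to vary like them.

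Of the 32 serpins, 23 passed the filter on low counts and were tested. The other 9 were SERPINA9, SERPINB2, SERPINB5, SERPINB7, SERPINB10, SERPINB11, SERPINB13, SERPINE3 and SERPINI2, with 0 to 10 counts in any library. Serpins took 0.851% ± 0.0282 of all counts in control, 0.898% ± 0.0586 in palmitate and 0.788% ± 0.0649 in high butyrate (SD, n = 3). SERPINA1, alpha-1-antitrypsin, made up 64.8% to 74.0% of the serpin counts of a library.

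Per transcript length, the deposited FPKM values ranked SERPINA1 far above the rest in control, at 1136 ± 35.2. Also abundant were SERPIND1 at 143 ± 10.3 FPKM, SERPINA7 at 141 ± 7.29, SERPINA5 at 118 ± 0.841, SERPINF1 at 109 ± 0.662, SERPINF2 at 106 ± 2.85 and SERPINA6 at 87.8 ± 2.31 (SD, n = 3). The spreads of SERPIND1 and SERPINA7 overlapped, as did those of SERPINF1 and SERPINF2. All of these are plasma proteins made by hepatocytes. SERPINC1, antithrombin, was at only 5.37 ± 0.457 FPKM. SERPING1, C1 inhibitor, and SERPINA2 were under 0.1 FPKM.

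**Figure D1:**
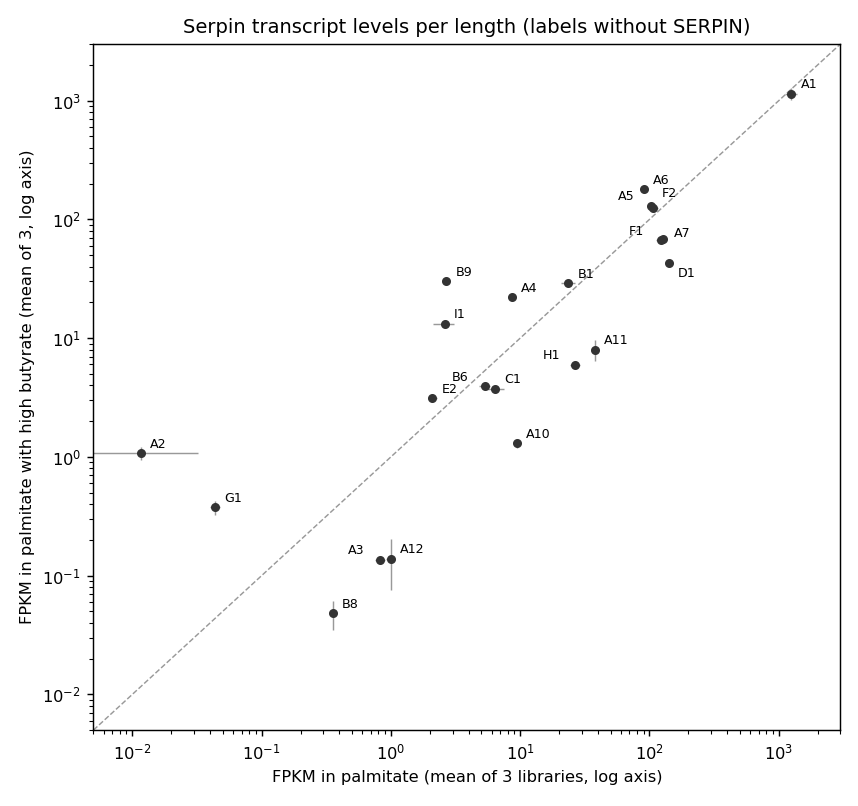
Mean FPKM of the tested serpins described here in palmitate (x axis, log scale) against palmitate with high butyrate (y axis, log scale), with SD bars over 3 libraries, cut short where they would reach 0. SERPINA1 stays highest in both groups, at 1252 and 1148 FPKM, while SERPINB9 and SERPINI1 lie above the dashed line of equal level and SERPIND1, SERPINH1 and SERPINA10 below it.

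Control and palmitate libraries show what the fatty acid alone does. None of the 23 tested serpins was called higher or lower (edgeR quasi-likelihood test, Benjamini-Hochberg adjusted p under 0.05 over all 20309 genes tested). Of all genes, 0.108% were called, 0.0345% higher and 0.0739% lower. At an unadjusted p under 0.05 there were 5 of 23 serpins, beside 2894 of all 20309 genes (edgeR). The 5 were SERPINA5, SERPINB9, SERPINC1, SERPINE2 and SERPINF1. SERPINF1, pigment epithelium-derived factor, had the smallest p, at a log2 difference of 0.24 (SE 0.0702, adjusted p = 0.147 by edgeR). DESeq2 called 1 serpin, SERPINF1 (adjusted p = 0.0285), and limma on the FPKM values called 0. Without palmitate library 2, edgeR called SERPINF1 and SERPINC1 higher (adjusted p = 0.0161 and 0.0465), and with palmitate library 1 as the only palmitate library it called SERPINC1, SERPINF1 and SERPINI1 higher (0.00880, 0.000901 and 0.0450). Libraries of both groups did not overlap in 5 of 23 serpins, against 16.1% of all genes.

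Most tested serpins differed between palmitate and the butyrate groups, in both directions. At low and at medium butyrate alike 8 were called higher and 10 lower, of 23. Over all genes 49.9% were called at the low dose, 25.9% higher and 24.0% lower, and 51.5% at the medium dose, 27.1% higher and 24.4% lower. High butyrate had 8 higher and 13 lower, where 71.6% of all genes were called, 37.7% higher and 33.8% lower. In bulk RNA, fewer cells with a transcript and less of it per cell cannot be told apart.

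The 8 higher serpins were the same at all 3 doses: SERPINA2, SERPINA4, SERPINA5, SERPINA6, SERPINB9, SERPINE2, SERPING1 and SERPINI1. Of these, SERPINA2 was at or near 0 in palmitate, and the filter on low counts largely fixed its direction. The 10 lower at all 3 doses were SERPINA3, SERPINA7, SERPINA10, SERPINA11, SERPINA12, SERPINB6, SERPINB8, SERPIND1, SERPINF1 and SERPINH1. SERPINA1 and SERPINC1 were among those called lower at the high dose and not called at the others. SERPINB1 and SERPINF2 were called in no comparison. No serpin was called in opposite directions at different doses against palmitate. These comparisons share the 3 palmitate libraries.

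The median log2 difference of the tested serpins was -0.07 at the low and medium doses and -0.57 at the high dose, beside 0.02, 0.03 and 0.06 over all genes. With DESeq2 size factors or library totals in place of TMM, the median gene at the high dose stood at 0.10 and 0.20. Libraries of both groups did not overlap in 16, 18 and 20 of 23 serpins at the low, medium and high dose, against 53.6%, 53.7% and 72.1% of all genes. Without palmitate library 1, 8, 9 and 9 serpins were higher and 9, 9 and 13 lower at these doses. With it as the only palmitate library, 7, 8 and 7 were higher and 11, 10 and 12 lower.

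**Figure D2:**
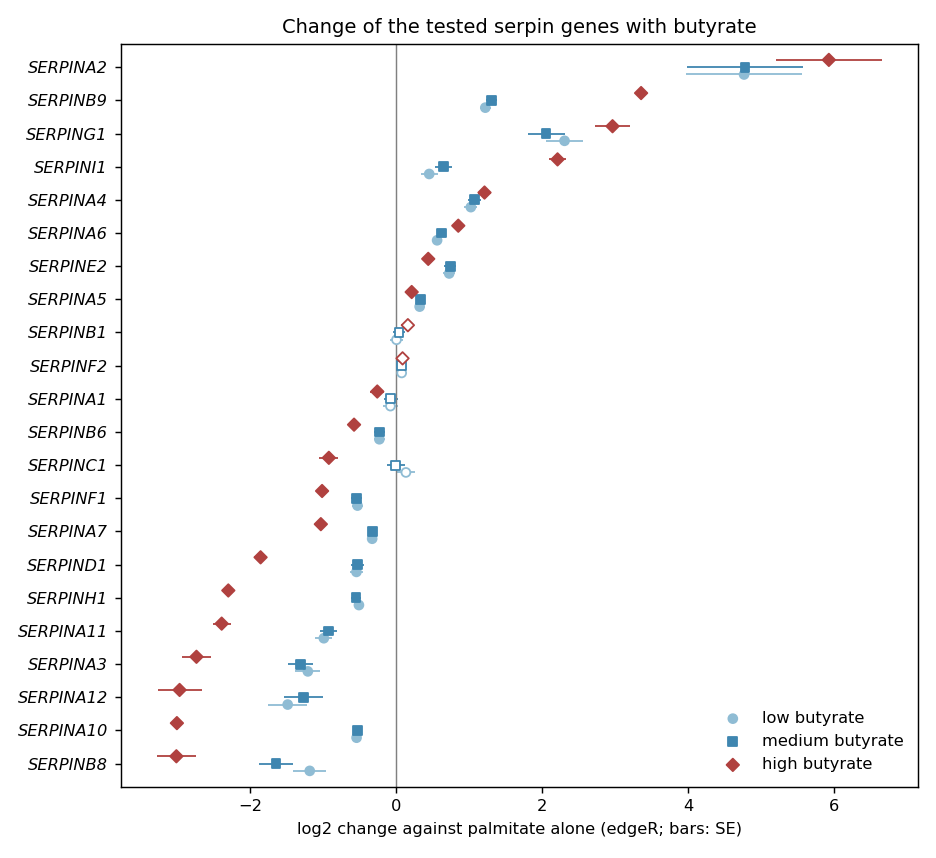
Log2 change against palmitate (x axis) of the tested serpins described here at low, medium and high butyrate, with bars of 1 SE; filled symbols passed the edgeR test at an adjusted p under 0.05, open symbols did not. SERPINB9 stands at 1.22, 1.31 and 3.36 and SERPINA10 at -0.54, -0.52 and -2.999; the fitted value of SERPINA2 rests on near-0 counts in palmitate and depends on the prior count.

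For the strongest changes at the high dose, the promoter windows show what sequence lies at the gene starts. They hold 250 bases before to 50 after the RefSeq start (GRCh38.p14, RefSeq sequence). A window was on hand for 24 of the 32 serpins. Shown are the 2 serpins that rose most and the 2 that fell most, among those with a single window and a mean of at least 5 CPM in some group. Capitals mark a GC box (GGGCGG) or a TATA box (TATAAA) on either strand.
SERPINB9, chr6:2903260-2903559, minus strand: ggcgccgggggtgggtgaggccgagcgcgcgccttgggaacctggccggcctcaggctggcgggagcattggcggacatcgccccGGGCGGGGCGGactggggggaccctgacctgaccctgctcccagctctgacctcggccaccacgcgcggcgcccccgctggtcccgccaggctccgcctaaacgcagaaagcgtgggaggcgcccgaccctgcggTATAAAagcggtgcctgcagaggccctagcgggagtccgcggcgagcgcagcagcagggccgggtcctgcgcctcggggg
SERPINI1, chr3:167735471-167735770, plus strand: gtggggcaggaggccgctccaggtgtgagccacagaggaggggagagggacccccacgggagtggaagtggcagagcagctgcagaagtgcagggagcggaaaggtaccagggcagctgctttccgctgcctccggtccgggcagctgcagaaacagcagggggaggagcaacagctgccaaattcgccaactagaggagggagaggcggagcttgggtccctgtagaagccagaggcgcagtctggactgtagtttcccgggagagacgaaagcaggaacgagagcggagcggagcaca
SERPINA11, chr14:94452751-94453050, minus strand: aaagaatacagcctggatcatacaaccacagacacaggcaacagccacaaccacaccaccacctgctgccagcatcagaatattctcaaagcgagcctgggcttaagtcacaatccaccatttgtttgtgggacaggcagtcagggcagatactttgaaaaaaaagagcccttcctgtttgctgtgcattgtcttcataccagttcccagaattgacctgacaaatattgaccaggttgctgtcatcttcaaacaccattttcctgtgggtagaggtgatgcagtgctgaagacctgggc
SERPIND1, chr22:20773863-20774162, plus strand: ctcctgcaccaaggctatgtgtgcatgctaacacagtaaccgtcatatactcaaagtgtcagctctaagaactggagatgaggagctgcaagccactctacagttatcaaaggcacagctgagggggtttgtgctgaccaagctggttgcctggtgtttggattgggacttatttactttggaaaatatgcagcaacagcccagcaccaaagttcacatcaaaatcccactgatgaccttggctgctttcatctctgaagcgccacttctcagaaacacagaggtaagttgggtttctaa

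The SERPINB9 window, at 75.7% G and C, held 2 overlapping GC boxes and 1 TATA box. SERPINI1, at 64% G and C, held neither, nor did SERPINA11 and SERPIND1, at 47.7% and 47%. The median over all 35116 windows was 58.7%. An HNF1 motif (GTTAAT), for a liver factor, and an AP-1 site (TGANTCA) were also searched on both strands. None of the 4 windows held either. Over the 37 serpin windows, 12 held a GC box (45% of all windows), 10 a TATA box (11.5%), 6 an HNF1 motif (6.88%) and 8 an AP-1 site (7.71%). Some serpins have several windows, and by gene these were 9, 9, 6 and 7 of 24. The windows include serpins that were not tested, and SERPINB8 was the only tested serpin with an AP-1 site. SERPINA6 and SERPINA7, which encode hormone carriers, held 3 and 2 HNF1 motifs. A match describes letters, not a bound site.

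Of 4 coagulation serpins, 3 fell and 1 rose at high butyrate, where 33.8% of all genes were called lower and 37.7% higher. SERPIND1, heparin cofactor II, an inhibitor of thrombin, had 364, 322 and 312 in control libraries, 369, 329 and 333 with palmitate, 260, 232 and 217 with the low dose, 263, 223 and 232 with the medium dose and 106, 87.7 and 92.02 with the high dose (CPM). All control and palmitate libraries were above all low and medium ones, which were above all high ones. SERPIND1 fell by 0.54 at the low and 0.52 at the medium dose on the log2 scale, and 3.61-fold at the high dose (log2 -1.85, SE 0.0897, adjusted p = 7.06e-14, edgeR).

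SERPINA10, the protein Z-dependent inhibitor of factors Xa and XIa, had 54.5, 52.8 and 54.1 in control libraries, 55.7, 51.2 and 55.1 with palmitate, 36.1, 37.5 and 37.9 with the low dose, 37.2, 37.03 and 38.4 with the medium dose and 6.54, 6.40 and 7.32 with the high dose (CPM). Its control and palmitate libraries overlapped and its high libraries stood far below all others. The fall was 1.45-fold at the low and 1.44-fold at the medium dose, but 7.99-fold at the high dose (log2 -2.999, SE 0.0711, adjusted p = 1.45e-18, edgeR).

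SERPINC1, antithrombin, the main inhibitor of thrombin and factor Xa, had 10.1, 9.37 and 8.34 in control libraries, 13.99, 9.67 and 11.1 with palmitate, 14.9, 12.1 and 11.3 with the low dose, 12.7, 11.5 and 10.6 with the medium dose and 6.37, 5.92 and 6.11 with the high dose (CPM). The high libraries alone lay apart, below every other library. SERPINC1 was not called at the low or medium dose (95% intervals of the log2 difference -0.12 to 0.40 and -0.26 to 0.26). At the high dose it fell 1.89-fold (log2 -0.92, SE 0.130, adjusted p = 1.91e-06, edgeR). ZBTB37, a gene on the opposite strand with a gap of 254 bases to SERPINC1, followed another course. It was lower at the low, medium and high doses (log2 -0.53, -0.68 and -0.82, adjusted p = 0.0027, 0.000278 and 1.53e-05, edgeR). From medium to high it was not called (log2 -0.14, adjusted p = 0.396, edgeR), whereas SERPINC1 fell (log2 -0.92).

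SERPINA5, protein C inhibitor, went the other way, with 452, 442 and 438 in control libraries, 412.6, 408 and 379.9 with palmitate, 514, 497 and 492 with the low dose, 515, 511 and 485 with the medium dose and 449, 477 and 468 with the high dose (CPM). Every butyrate library lay above every palmitate library, and those at the high dose overlapped with control. Its rise was small, 1.25-fold at the low, 1.26-fold at the medium and 1.16-fold at the high dose (adjusted p = 0.000105, 7.43e-05 and 0.00262, edgeR). The high-dose call was lost with palmitate library 1 alone (adjusted p = 0.0576) and with no filter on low counts (0.0536, edgeR).

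Among the coagulation proteases and cofactors these serpins act on or beside, listed with the inhibitor TFPI, 12 were tested. Of these, 2 were higher and 8 lower at high butyrate, where 37.7% of all genes were called higher and 33.8% lower. PROC, the protein C zymogen that SERPINA5 inhibits once activated, fell 3.72-fold from 156 ± 3.60 to 42.01 ± 1.64 CPM (adjusted p = 3.87e-17). F11, factor XI, fell 6.96-fold to 4.75 ± 0.515 CPM (adjusted p = 5.84e-16). PROS1, protein S, and F7, factor VII, fell 2.70-fold and 3.36-fold (adjusted p = 3.27e-13 and 2.3e-10, edgeR). The median log2 difference of this list was -0.97, beside 0.06 over all genes. Without palmitate library 1, 1 was higher and 7 lower: the rise of F3, tissue factor (log2 0.24, adjusted p = 0.0196), was lost (0.0533), as it was without palmitate library 3 (0.0561) or high library 1 (0.125), and THBD, thrombomodulin, had no count in any remaining library of either group (edgeR).

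The serpins of fibrinolysis, the breakdown of clots, include several described here. SERPINI1, neuroserpin, an inhibitor of tissue plasminogen activator best known from neurons, had 5.21, 5.89 and 5.42 in control libraries, 7.27, 5.04 and 5.09 with palmitate, 7.99, 7.22 and 8.55 with the low dose, 9.22, 9.07 and 9.07 with the medium dose and 27.4, 27.99 and 25.2 with the high dose (CPM). Low libraries overlapped with palmitate through palmitate library 1, and high libraries were far above all others. The rise was 1.37-fold at the low, 1.57-fold at the medium and 4.64-fold at the high dose (log2 2.21, SE 0.116, adjusted p = 2.6e-13, edgeR). With palmitate library 1 alone the low-dose call was lost (log2 0.13, adjusted p = 0.436). The neighbour PDCD10, which starts 303 bases away on the opposite strand, moved by a log2 of -0.23 at the high dose (adjusted p = 0.0297).

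SERPINE2, protease nexin-1, an inhibitor of thrombin and urokinase at cell surfaces, had 17.6, 17.6 and 16.6 in control libraries, 18.96, 18.5 and 21.4 with palmitate, 33.8, 31.5 and 32.4 with the low dose, 35.4, 32.9 and 30.2 with the medium dose and 28.8, 26.2 and 25.04 with the high dose (CPM). Butyrate libraries all lay above palmitate, and the high dose lay below the low and medium doses. SERPINE2 rose 1.66-fold, 1.67-fold and 1.36-fold over palmitate at the rising doses (adjusted p = 1.41e-07, 9.82e-08 and 3.6e-05), and fell from the medium to the high dose (log2 -0.30, SE 0.0778, adjusted p = 0.00251, edgeR). SERPINF2, alpha-2-antiplasmin, which traps plasmin itself, was not called, at 260.5 ± 15.1 CPM in palmitate and 277 ± 7.67 in high butyrate (SD, n = 3; 95% interval of the log2 difference -0.04 to 0.22). DESeq2 called SERPINF2 higher (adjusted p = 0.0258), as did edgeR with library totals (log2 0.23, 0.00424) or a filter of 1 CPM (log2 0.17, 0.0154) and limma on the FPKM values (0.00395).

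In the plasminogen list 11 were tested, of which 4 were higher and 6 lower at the high dose. The shares of all genes were 37.7% higher and 33.8% lower. ANXA2, annexin A2, a cell-surface receptor for plasminogen and its activator, fell 5.54-fold from 183 ± 21.7 to 32.98 ± 2.00 CPM (adjusted p = 1.28e-16). VTN, vitronectin, an adhesive plasma protein, fell 1.79-fold (adjusted p = 4.14e-09). HPN, the membrane protease hepsin, fell 1.82-fold, and TMPRSS6, matriptase-2, rose 6.79-fold to 2.83 ± 0.641 CPM (adjusted p = 1.64e-07 and 7.8e-08, edgeR). PLAU, urokinase, was among the genes that split the palmitate libraries, at 2.57, 0.178 and 0.0343 CPM in libraries 1 to 3.

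Plasma inhibitors of elastase, chymase and kallikrein also differed. SERPINA1, which protects lung from neutrophil elastase, had 5834, 5403 and 5489 in control libraries, 5812, 6627 and 6785 with palmitate, 6704, 5930 and 5612 with the low dose, 5743, 5845 and 6707 with the medium dose and 6241, 4891 and 4973 with the high dose (CPM). High library 1 lay among the palmitate libraries while high libraries 2 and 3 lay below all of them. Its fall at the high dose was 1.19-fold (log2 -0.26, SE 0.0978, adjusted p = 0.0243, edgeR). That call was lost with DESeq2 size factors (adjusted p = 0.0613), with library totals (0.225), with a filter of 1 CPM (0.102), with only the 6 libraries compared (0.0621), and without palmitate library 3 (0.0836), high library 2 (0.120) or high library 3 (0.107), all by edgeR. It was also lost with limma on log2 FPKM (0.332 and 0.354 at pseudocounts of 1 and 0.1). Palmitate library 1 alone gave a log2 of -0.13 (adjusted p = 0.366).

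SERPINA3, alpha-1-antichymotrypsin, an inhibitor of cathepsin G and an acute phase protein, had 5.17, 4.29 and 4.26 in control libraries, 4.43, 3.79 and 4.73 with palmitate, 2.16, 1.96 and 1.55 with the low dose, 1.41, 1.73 and 2.09 with the medium dose and 0.623, 0.658 and 0.665 with the high dose (CPM). Each butyrate library lay below each palmitate library, and the high ones lowest. SERPINA3 fell 2.31-fold, 2.48-fold and 6.64-fold (high dose: log2 -2.73, SE 0.194, adjusted p = 4.03e-11, edgeR). Its value is uncertain: in GENCODE 29 it overlaps AL049839.2 on the same strand, with which it shares 29.5% of its runs of 50 bases, and that gene rose (log2 1.06, adjusted p = 0.00173).

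SERPINA4, kallistatin, an inhibitor of tissue kallikrein, rose at each dose, with 17.3, 17.9 and 18.5 in control libraries, 19.9, 16.7 and 17.3 with palmitate, 42.1, 33.5 and 34.1 with the low dose, 39.7, 39.3 and 34.6 with the medium dose and 41.4, 43.00 and 40.5 with the high dose (CPM). All butyrate libraries lay above all palmitate and control libraries. Rises were 2.04-fold, 2.11-fold and 2.32-fold (adjusted p = 5.73e-09, 2.37e-09 and 6.47e-11, edgeR). SERPINA4 and SERPINA5 overlap over 8472 bases on the same strand but share 0.168% of the runs of SERPINA4.

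SERPINA12, vaspin, an adipokine that inhibits kallikrein 7, had 2.83, 2.26 and 2.45 in control libraries, 2.49, 2.64 and 2.37 with palmitate, 1.31, 0.840 and 0.566 with the low dose, 0.920, 1.00 and 1.19 with the medium dose and 0.312, 0.179 and 0.464 with the high dose (CPM). All butyrate libraries were below all palmitate libraries, at low levels throughout. SERPINA12 fell 2.79-fold, 2.40-fold and 7.79-fold (high dose: log2 -2.96, SE 0.301, adjusted p = 1.4e-08, edgeR).

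SERPING1, C1 inhibitor, which blocks the proteases that start the complement and contact pathways, was rare, with 0.218, 0.363 and 0.195 in control libraries, 0.373, 0.311 and 0.309 with palmitate, 1.77, 1.65 and 1.53 with the low dose, 1.20, 1.53 and 1.40 with the medium dose and 2.58, 2.95 and 2.26 with the high dose (CPM). Butyrate libraries all lay above the others, from at most 18 counts per palmitate library to at least 112 per high library. It rose 4.96-fold, 4.16-fold and 7.81-fold (high dose: log2 2.97, SE 0.245, adjusted p = 4.79e-10, edgeR).

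Of 7 tested complement proteases and components, 2 were higher and 4 lower at high butyrate, against 37.7% and 33.8% of all genes. C1R, a protease that SERPING1 inhibits, rose 4.13-fold from 1.84 ± 0.0617 to 7.59 ± 1.05 CPM (adjusted p = 1.85e-11). MASP1 and MASP2, proteases of the lectin pathway, fell 5.79-fold and 1.85-fold (adjusted p = 4.75e-08 and 7.06e-09), and C2, cleaved by MASP2, fell 1.86-fold (adjusted p = 6.17e-08, edgeR).

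Serpins that do not inhibit proteases moved in opposite ways. SERPINA6, corticosteroid-binding globulin, which carries cortisol, had 169, 158 and 160.3 in control libraries, 177, 169.5 and 179 with palmitate, 284, 242 and 250.4 with the low dose, 270.2, 268 and 273 with the medium dose and 336, 309.5 and 304 with the high dose (CPM). The control and palmitate libraries were lowest, low and medium lay between, and high lay above both. Rises were 1.48-fold, 1.54-fold and 1.81-fold (high dose: log2 0.85, SE 0.0663, adjusted p = 1.73e-10, edgeR).

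SERPINA7, thyroxine-binding globulin, which carries thyroid hormone, had 369.7, 391 and 402 in control libraries, 388, 349 and 357 with palmitate, 285, 291 and 297 with the low dose, 283, 286 and 308 with the medium dose and 174, 176 and 186 with the high dose (CPM). Low and medium libraries overlapped with each other and lay below palmitate, and the high libraries were lowest. Falls were 1.25-fold, 1.25-fold and 2.04-fold (high dose: log2 -1.03, SE 0.0635, adjusted p = 3.92e-12, edgeR).

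SERPINF1, an inhibitor of vessel growth, had 329, 325 and 321 in control libraries, 431, 352 and 371 with palmitate, 278, 265 and 259 with the low dose, 277, 259 and 258 with the medium dose and 201, 185 and 186 with the high dose (CPM). Palmitate library 1 was the highest of all, and every butyrate library was below every palmitate and control library. Falls were 1.44-fold, 1.46-fold and 2.02-fold (high dose: log2 -1.01, SE 0.0710, adjusted p = 3.3e-11, edgeR). AGT, angiotensinogen, has the serpin fold under another symbol. It was at 435 ± 10.6 CPM in palmitate and 317 ± 4.32 in high butyrate (SD, n = 3), a fall of 1.37-fold (adjusted p = 2.67e-06, edgeR), and was not called at the low or medium dose.

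**Figure D3:**
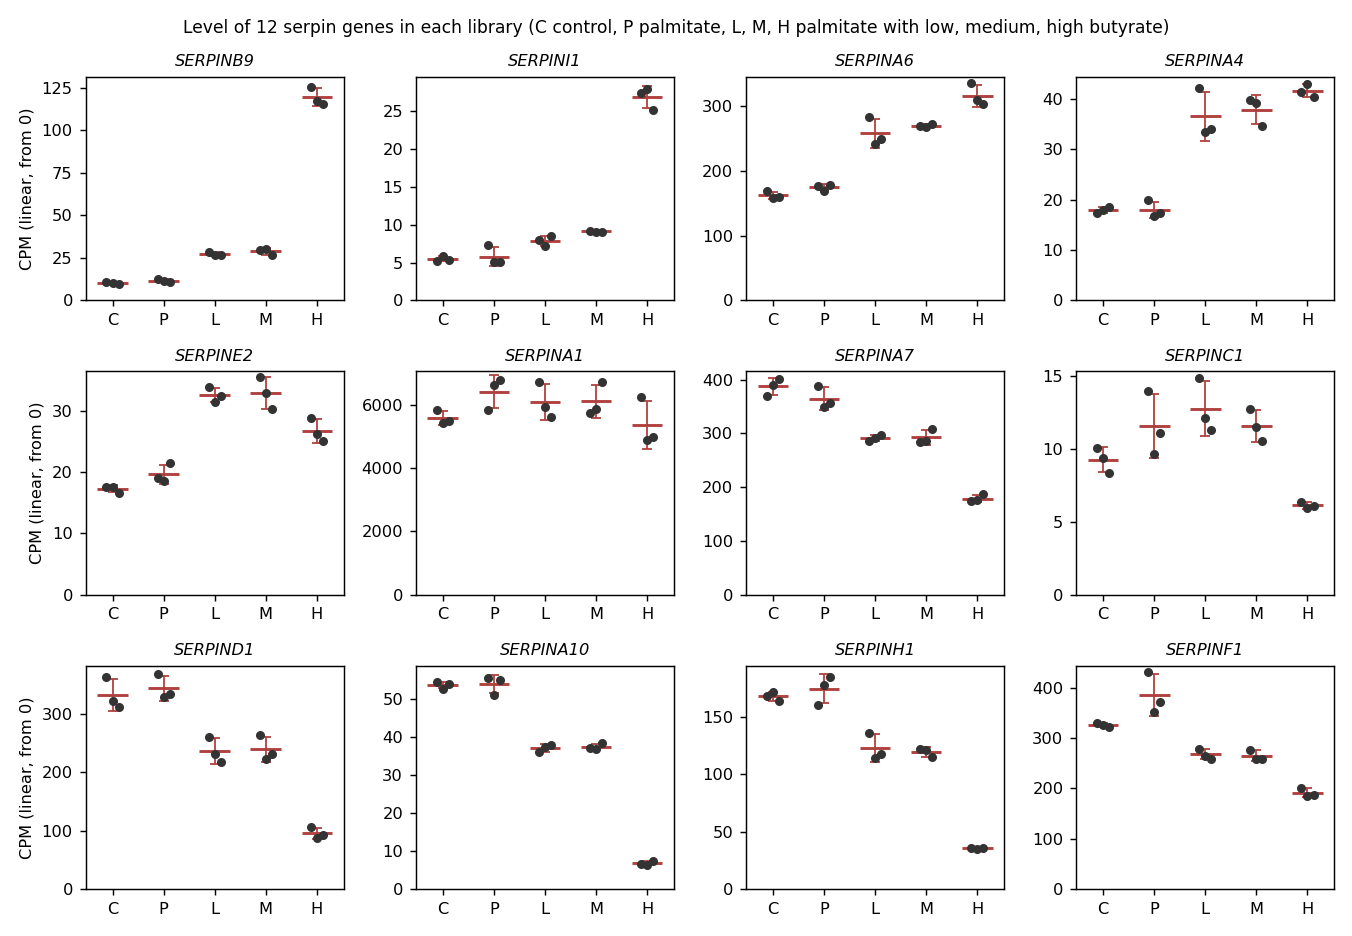
CPM of 12 serpins in each of the 15 libraries (y axis, linear from 0; points are libraries, lines the group mean and bars the SD of 3) by group, from control (C) through palmitate (P) to the butyrate doses (L, M, H). SERPINB9 reaches 115 to 126 CPM in high butyrate from 11.1 to 12.5 in palmitate, and SERPINH1 drops to 35.01 to 36.1 from 161 to 185.

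The intracellular clade B serpins went both ways, with 1 higher and 2 lower of 4 tested at the high dose, where 71.6% of all genes were called. SERPINB9, the inhibitor of granzyme B that protects cells from the granules of killer lymphocytes, had 10.6, 10.2 and 9.70 in control libraries, 12.5, 11.4 and 11.1 with palmitate, 28.4, 26.5 and 26.8 with the low dose, 29.7, 30.3 and 26.5 with the medium dose and 126, 117 and 116 with the high dose (CPM). Each dose lay apart from palmitate, and the high libraries lay far above low and medium, which overlapped. SERPINB9 rose 2.34-fold, 2.47-fold and 10.2-fold (high dose: log2 3.36, SE 0.0756, adjusted p = 8.89e-19, edgeR).

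SERPINB6, an inhibitor of cathepsin G, lies near SERPINB9 on chromosome 6 and had 74.2, 73.7 and 68.99 in control libraries, 83.4, 65.8 and 70.8 with palmitate, 60.8, 66.3 and 61.04 with the low dose, 65.6, 65.2 and 57.6 with the medium dose and 50.05, 46.9 and 50.96 with the high dose (CPM). Only the high libraries and the medium libraries lay wholly below palmitate, the medium ones by less than 1 CPM. It fell 1.49-fold at the high dose (log2 -0.57, SE 0.0790, adjusted p = 1.28e-06, edgeR). Falls at the low and medium doses (log2 -0.23 and -0.22, adjusted p = 0.0208 and 0.0216) were not called without palmitate library 1 (0.145 and 0.154), without low library 1 (0.0711) or 3 (0.0704), or without medium library 3 (0.116). They were also lost with library totals (0.0829 and 0.0896) and with only the libraries compared (0.0635 and 0.0723, edgeR), and with limma on log2 FPKM (0.125 and 0.127 at a pseudocount of 1, 0.121 and 0.123 at 0.1).

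SERPINB8, which inhibits furin in vitro, had 1.66, 2.00 and 2.18 in control libraries, 2.13, 2.04 and 2.23 with palmitate, 0.803, 0.840 and 1.15 with the low dose, 0.766, 0.531 and 0.767 with the medium dose and 0.356, 0.239 and 0.202 with the high dose (CPM). Every butyrate library was below every palmitate library, with the high ones lowest. SERPINB8 fell 2.27-fold, 3.12-fold and 8.03-fold (high dose: log2 -3.01, SE 0.268, adjusted p = 1.7e-09, edgeR). It overlaps HMSD on the same strand and shares 5.42% of its runs of 50 bases with it. SERPINB1, the leukocyte elastase inhibitor, was at 75.4 ± 11.7 CPM in palmitate and 84.5 ± 3.37 in high butyrate (SD, n = 3) and was not called (95% interval of the log2 difference -0.02 to 0.35). DESeq2 called it higher (adjusted p = 0.0335), as did edgeR with DESeq2 size factors (0.0357), library totals (log2 0.30, 0.00240), a filter of 1 CPM (0.0164) or without palmitate library 1 (log2 0.29, 0.00114), and limma on the FPKM values (0.00511).

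Granule proteases and related granule proteins were rare in these cells. Of 9 genes listed, 3 were tested, and none exceeded a mean of 1.02 CPM. All 3 were called higher at each dose, where 25.9%, 27.1% and 37.7% of all genes were. At or near 0 in palmitate, they passed the filter on low counts through other groups. Their direction against palmitate was thus largely fixed beforehand. PRTN3, proteinase 3, had no count in any palmitate library and was at 0.647 ± 0.191 CPM in high butyrate. GZMM, granzyme M, was at 0.0709 ± 0.0894 and 1.02 ± 0.558 CPM, and AZU1, azurocidin, at 0.0296 ± 0.0512 and 0.387 ± 0.0485 (adjusted p = 3.16e-07, 5.14e-05 and 0.000339 for the 3, edgeR).

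Cathepsins, lysosomal proteases, had 6 higher and 2 lower of 8 tested at high butyrate, where 37.7% of all genes were higher and 33.8% lower. CTSB, cathepsin B, the most abundant named, rose 2.23-fold from 393 ± 18.9 to 879 ± 11.6 CPM (adjusted p = 3.15e-13). CTSZ and CTSK rose 2.85-fold and 2.94-fold from low levels (adjusted p = 4.41e-07 and 3.87e-05), and CTSH fell 1.49-fold (adjusted p = 1.6e-08, edgeR). Of the 6 higher, 4 were called without palmitate library 3, and 3 with palmitate library 1 alone, where CTSD (adjusted p = 0.636), CTSS (0.399) and CTSV (0.0819) were lost.

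SERPINH1, also called HSP47, is the chaperone of procollagen in the endoplasmic reticulum and inhibits no protease. It had 168, 172 and 164 in control libraries, 161, 178 and 185 with palmitate, 137, 115 and 118 with the low dose, 123, 122 and 115 with the medium dose and 36.1, 35.01 and 35.8 with the high dose (CPM). The high libraries lay far below all others, and low and medium lay between them and palmitate. SERPINH1 fell 1.42-fold, 1.46-fold and 4.91-fold (high dose: log2 -2.29, SE 0.0727, adjusted p = 8.82e-17, edgeR).

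Of the clients of SERPINH1 and their modifying enzymes 14 were tested. At the high dose 7 were higher and 4 lower, where 37.7% of all genes were called higher and 33.8% lower. COL1A1, a chain of type I collagen, went from 0.0595 ± 0.0703 CPM in palmitate to 16.8 ± 1.17 in high butyrate (adjusted p = 1.09e-14, edgeR). COL1A2, its partner chain, went from 0.0414 ± 0.0718 to 1.37 ± 0.112 CPM (adjusted p = 1.59e-06, edgeR). At or near 0 in palmitate, these chains passed the filter on low counts through other groups. Their direction against palmitate was thus largely fixed beforehand, and they count among the 7 higher. PLOD2, a collagen lysyl hydroxylase, rose 1.93-fold to 657 ± 72.97 CPM, and PLOD3, another, fell 1.59-fold (adjusted p = 1.96e-07 and 1.51e-09, edgeR). COL4A1 split the palmitate libraries (1.04, 0.0888 and 0 CPM) and its log2 change at the high dose turned from -2.68 to 0.46 without library 1.

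SERPINA11, a secreted serpin of clade A, had 63.04, 52.05 and 47.2 in control libraries, 65.3, 54.2 and 57.8 with palmitate, 31.4, 29.6 and 28.5 with the low dose, 31.1, 29.3 and 32.8 with the medium dose and 14.1, 10.7 and 9.13 with the high dose (CPM). All butyrate libraries lay below all palmitate libraries. SERPINA11 fell 1.98-fold, 1.90-fold and 5.23-fold (high dose: log2 -2.39, SE 0.124, adjusted p = 2.33e-13, edgeR). AL132708.1 overlaps SERPINA11 antisense over 10327 bases and had a mean of at most 0.0153 CPM in any group. Without a known strand setting, reads of both cannot be told apart.

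SERPINA2, a neighbour and close relative of SERPINA1 long treated as a pseudogene, had 0, 0 and 4 counts in control and 0, 0 and 2 in palmitate. With butyrate it had 20, 20 and 17 counts at the low dose, 15, 21 and 21 at the medium dose and 42, 54 and 42 at the high dose. All butyrate libraries were above all others (adjusted p = 3.79e-05, 3.23e-05 and 2.56e-07, edgeR), and no fold is given against counts this near 0. At or near 0 in control and palmitate, SERPINA2 passed the filter on low counts through the butyrate groups. Its direction against palmitate was thus largely fixed beforehand. None of its runs of 50 bases occurs in another annotated gene, SERPINA1 included.

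Other plasma protease inhibitors of different folds also went both ways, with 6 higher and 4 lower of 11 tested at high butyrate. As shares of all genes, 37.7% were called higher and 33.8% lower. ITIH2 and ITIH3, heavy chains of inter-alpha-inhibitor, fell 3.17-fold and 3.38-fold, ITIH2 from 2232 ± 62.8 to 704 ± 19.7 CPM (adjusted p = 2.04e-15 and 1.9e-13). TIMP2, an inhibitor of metalloproteases, and SPINT1, an inhibitor of hepsin and matriptase, rose 4.56-fold and 6.52-fold (adjusted p = 2.6e-16 and 5.64e-13, edgeR).

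The dose steps were unequal. From low to medium butyrate no serpin was called and none had an unadjusted p under 0.05 (edgeR), as no gene of all 20309 was called (0%), with 490 at an unadjusted p under 0.05. DESeq2 and limma on the FPKM values called no serpin either. Log2 differences ran from -0.46 for SERPINB8 to 0.22 for SERPINA12. Of 23 serpins, 2 had libraries that did not overlap, SERPINB8 and SERPINI1, against 8.15% of all genes.

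From medium to high butyrate 5 serpins were higher and 13 lower, where 55.6% of all genes were called, 26.9% higher and 28.7% lower, and 20 of 23 did not overlap, against 63.6%. The 5 were SERPINB9 (log2 2.05, SE 0.0706), SERPINI1 (1.56, SE 0.113), SERPINA2, SERPING1 and SERPINA6. The call of SERPINA2 (adjusted p = 0.0366) was lost on leaving out any single medium or high library (0.0573 to 0.114, edgeR). Largest among the falls were SERPINA10 (log2 -2.48, SE 0.0709), SERPINH1 (-1.75, SE 0.0718) and SERPINA12 (-1.70, SE 0.322). SERPINA1, SERPINA4, SERPINA5, SERPINB1 and SERPINF2 were not called. SERPINA1 was called lower without high library 1 (log2 -0.30, adjusted p = 0.0117) and with no filter on low counts (0.0162, edgeR). SERPINA4 and SERPINB1 were called higher with library totals (adjusted p = 0.0365 and 0.049, edgeR), and SERPINA4 also by limma on the FPKM values (0.0370).

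Neighbouring serpins of the cluster on chromosome 14 moved in different directions. From SERPINA10 (94280455 to 94293271, GENCODE 29 on GRCh38) to SERPINA3 (94612377 to 94624055) lie 10 serpins, of which 9 were tested. SERPINA6, the next after SERPINA10, rose at the high dose by a log2 of 0.85 while SERPINA10 fell by 2.999. SERPINA11 and SERPINA12, with the untested SERPINA9 between them, fell, and SERPINA4 and SERPINA5, next in order, rose. PPP4R4, 719 bases from SERPINA10 on the opposite strand, rose (log2 0.89, adjusted p = 2.87e-07).

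**Figure D4:**
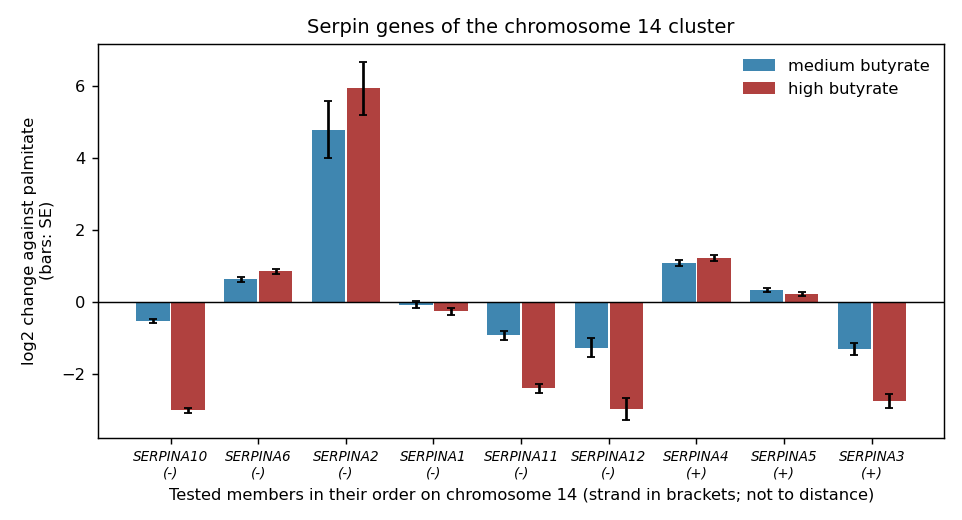
Log2 change against palmitate (y axis, bars of 1 SE) at medium and high butyrate for the 9 tested serpins of the chromosome 14 cluster, in their order along the chromosome with the strand in brackets. At high butyrate SERPINA10, SERPINA1, SERPINA11, SERPINA12 and SERPINA3 lie below 0 and SERPINA6, SERPINA2, SERPINA4 and SERPINA5 above it.

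On chromosome 6, SERPINB1 (2832332 to 2842006), SERPINB9 (2887266 to 2903280) and SERPINB6 (2948159 to 2972165) lie on the minus strand in that order, and were not called, rose and fell at the high dose. SERPIND1 (chromosome 22, 20773879 to 20787720) lies within PI4KA, a lipid kinase gene on the opposite strand, over 13842 bases. PI4KA rose (log2 0.99, adjusted p = 3.77e-08) while SERPIND1 fell, and any of its reads counted for SERPIND1 cannot be told apart. These neighbours were picked after their values were seen.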

How the data were processed

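The deposited table held whole-number counts per Ensembl gene, which the authors did not normalize, and FPKM values beside them, per the file headers. The submitters' processing notes list HISAT2 and featureCounts, with FastQC and DESeq2, under GRCh38 (hg38) and without versions, and the annotation and strand setting are not given in the sources used here. Both mates of a pair seem to have been counted, since even numbers made up 69.2% of counts between 1 and 20 but 50.5% between 100 and 1000.

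From the deposited counts, genes were kept by filterByExpr, scaled by TMM and fitted over all 15 libraries with 1 coefficient per group by edgeR 4.0.16 (R 4.3.3), with the quasi-likelihood test and Benjamini-Hochberg adjustment over 20309 genes. Calls needed an adjusted p below 0.05. The SE was derived from that test, and intervals are 95%. CPM are counts over TMM-scaled totals. The spread behind each p-value is that between libraries. The common biological coefficient of variation was 8.88%. A count of 0 allows up to 3 counts, for counting error only.

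Values are given in every library for each serpin called in at least 1 comparison and for the 6 highest by FPKM in control, except 1 tested serpin that enters the counts but is not reported here. Of each list of partner genes, up to 4 called genes with the smallest adjusted p at high butyrate are named. Members and lists were chosen with earlier results of these data known. Neighbouring genes came from GENCODE 29.

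DESeq2 1.42.0 and limma 3.58.1 (on FPKM, pseudocount 1 or 0.1) were run as other tools. Within edgeR, scaling was also by DESeq2 size factors or library totals, and the filter was dropped or set to 1 CPM in 3 libraries. Further fits took the 6 libraries compared, a replicate block, a cutoff of 0.01 or all but 1 library. Palmitate library 1 as the only palmitate library was added after seeing the data. Same-numbered libraries did not deviate together: the correlations of 30 pairs ran from -0.0598 to 0.0522. Scripts were tested on simulated data, and the criteria for passing were changed after the first were not met. Python 3.11.15 with pandas 2.3.3, numpy 2.4.6 and matplotlib 3.10.9 made summaries and figures.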

Additional observations from a re-analysis of the deposited data

How the results depend on the processing

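The numbers of serpins called higher and lower stayed within 1.5 times the reported number in all comparisons and alternatives, except for palmitate against control. There 0 were called higher, against 1 by DESeq2, 0 to 2 on leaving out each library in turn, and 3 with palmitate library 1 as the only palmitate library, a setting chosen after seeing the data. Calls of SERPINA1, SERPINA2, SERPINA5, SERPINB6 and SERPINI1 that were lost are given with their values above or here. In no alternative did a serpin called in a reported comparison change direction. With the replicate number as a block, 9 serpins were higher and 13 lower at high butyrate, SERPINB1 was gained there (adjusted p = 0.0370) and SERPINA2 was lost from medium to high (0.0521, edgeR). The labels do not say that the numbers pair samples.

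Reversed signs were nearly all in genes that split the palmitate libraries. With palmitate library 1 alone, S100A10 stood at log2 0.32 against control, and at -0.33 and -0.25 at the low and medium doses, and SERPINB1 at -0.23 at the low dose (adjusted p = 0.0469). Over leaving out each library, the high dose gave -3.96 to 0.46 for COL4A1, -0.80 to 2.996 for PLAU and -5.81 to 0 for THBD, the upper values without palmitate library 1. The cause was not tested. With 3 libraries a group, the spread limits small differences, and counts limit genes under about 1 CPM.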

Other observations

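SERPINB5, maspin, a clade B serpin of epithelia, did not pass the filter on low counts. It had 0 counts in every control, palmitate and low butyrate library. In medium butyrate library 3 it had 4 counts, and in high butyrate libraries 1 to 3 it had 4, 2 and 10. No test was made on counts this low.

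LRP1, the receptor that takes up serpin-protease complexes in hepatocytes, differed among the palmitate libraries, at 289.8, 668 and 515 CPM in libraries 1 to 3, against 629.8, 605 and 596 in control and 797, 716 and 852 in high butyrate. Library 1 lay below every control library and library 2 above library 3.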
